A study of Mus musculus with 12 samples.

Results

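The cell's oxygen-sensing machinery was followed through 9 genes of mouse bone marrow B cells: the HIF alpha subunits Hif1a, Epas1 and Hif3a, their partner Arnt, the prolyl hydroxylases Egln1, Egln2 and Egln3, the asparaginyl hydroxylase Hif1an, and Vhl. They were taken by symbol from the 46983 genes of the count table, a rule that uses no measured value although earlier results of these data were known when the genes were listed, and all 9 passed the filter on low counts.

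HIF is a transcription factor made of an oxygen-labile alpha subunit and the stable subunit ARNT. When oxygen is present the EGLN enzymes (also called PHD1 for Egln2, PHD2 for Egln1 and PHD3 for Egln3) hydroxylate prolines of the alpha subunit, the VHL ubiquitin ligase binds the hydroxylated form, and the proteasome destroys it. HIF1AN (FIH) hydroxylates an asparagine and so keeps coactivators off. When oxygen is low these reactions slow down and HIF binds hypoxia response elements, and EGLN2 apart, the prolyl hydroxylase genes are themselves known targets of it. Control of the alpha subunit is therefore mostly at the protein level, which RNA counts do not show.

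RNA was sequenced from B cells isolated from bone marrow with magnetic beads and kept in normoxia or hypoxia. The WT group stands for control mice, which in this colony were littermates that carried floxed Hif1a without Cre or 1 copy of Mb1-cre without a stated floxed allele, and the labels do not say which. KO cells came from Hif1a f/f mice crossed with Mb1-cre, a recombinase placed in the Cd79a locus and active from the earliest B-lineage stages. Each of the 4 groups (WT normoxia, WT hypoxia, KO normoxia, KO hypoxia) held 3 libraries, and the sources state neither the age of the mice nor how many mice stood behind a group. The p-values therefore measure only the spread between libraries, part of which may be technical.

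Library totals ran from 27629175 to 36880082 counts. B-lineage markers were high in every library, with 8 markers summing to 5339 to 8079 CPM (read counts brought to a common library size, with TMM factors). Cd79a, whose locus carries the Cre, had 1460 to 1913 CPM in WT and 776 to 880.9 CPM in KO, with no overlap. If the WT mice lacked Cre, loss of Hif1a and presence of Cre cannot be told apart between genotypes. Other bone marrow cells were present: 8 monocyte markers, none of them at 0 in any group, summed to 1353 to 2005 CPM in WT and 778 to 1556 CPM in KO. The 8 neutrophil markers, none at 0 either, summed to 2420 to 6314 CPM in WT and 1168 to 3982 CPM in KO, and 5 erythroid markers to 72.0 to 307.6 CPM in WT and 147.5 to 2568 CPM in KO. Y-linked transcripts summed to 312 to 385.4 CPM in WT replicates 1 and 2, in normoxia and hypoxia alike, where Xist was below 1 CPM. Xist was at 1358 to 2154 CPM in WT replicate 3 and in KO, and KO hypoxia replicate 1 held Y-linked transcripts as well, at 46.0 CPM. WT replicate 3 therefore did not come from the same mice as WT replicates 1 and 2. In such bulk samples fewer cells of a type and less RNA per cell cannot be told apart.

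The alpha subunit genes came first. Hif1a (ENSMUSG00000021109, mm10 chromosome 12, 73901375 to 73947530) encodes HIF-1α, the gene targeted in KO. It had 85.0, 87.2 and 96.8 CPM in WT normoxia and 84.2, 84.3 and 110.5 CPM in WT hypoxia. KO libraries held 114, 109 and 110.0 CPM in normoxia and 136, 127 and 120.1 CPM in hypoxia, above every WT library of the same condition. Hif1a reads were thus not lower in KO. Which exon was deleted is not given in the sources used here, and counts over the whole gene do not check the genotype. Reads of Gm15283, an antisense gene within Hif1a, numbered 6 to 64 per library, and without strand they cannot be told apart from those of Hif1a.

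Hypoxia did not move Hif1a RNA past the test in either genotype. Its log2 fold change was 0.05 ± 0.10 (SE, 3 libraries against 3) in WT (edgeR adjusted p = 0.733) and 0.20 ± 0.10 in KO (adjusted p = 0.150). The groups overlapped in WT and did not in KO. In KO the change was called without WT hypoxia replicate 3 (0.22), with a fit of the compared groups alone (0.19), with the Y-linked covariate (0.25), with replicate numbers as a block (0.20) and in the Xist-bearing libraries (0.20), a set that holds all 6 KO libraries. Hif1a RNA stood at 92.0 to 98.2% of the alpha subunit RNA of every library, counted per kb of exon. In KO these are whole-gene reads of the targeted gene, which do not show how much intact Hif1a RNA was left.

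Epas1 (ENSMUSG00000024140, chromosome 17, 86753700 to 86833410) encodes HIF-2α, a second alpha subunit best known from endothelial cells. Its level was low in normoxia, at 1.66, 1.74 and 1.34 CPM in WT and 2.71, 2.08 and 2.14 CPM in KO. Under hypoxia it reached 5.37, 3.94 and 4.95 CPM in WT and 4.34, 6.13 and 3.79 CPM in KO. Every hypoxic library lay above every normoxic one of both genotypes. Epas1 rose by 1.59 ± 0.23 in WT (adjusted p = 0.000202) and by 1.04 ± 0.22 in KO (adjusted p = 0.00328), which is 3.01-fold and 2.05-fold. Both calls held under all 21 alternative settings tried.

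Among the alpha subunits the share of Epas1 grew with hypoxia. It went from 1.84 ± 0.353% (SD, n = 3) to 5.11 ± 0.933% in WT and from 2.14 ± 0.263% to 3.76 ± 0.927% in KO, where the sum includes the whole-gene reads of the targeted Hif1a. The groups did not overlap, and the exact two-sided permutation p was 0.1 for each, the smallest that 3 libraries against 3 allow (adjusted p = 0.16 over 8 share comparisons). Between the genotypes the share differed by -1.35 points under hypoxia (exact permutation p = 0.3) and by 0.302 points in normoxia (exact permutation p = 0.6). Hif3a stayed below Epas1 in every library.

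Hif3a (ENSMUSG00000004328, chromosome 7, 17031507 to 17062427) encodes HIF-3α, of which some isoforms hold back HIF. It was close to the detection limit, so counts are given. WT normoxia held 0, 7 and 14 counts and WT hypoxia 56, 32 and 14 counts, while KO normoxia held 5, 3 and 13 and KO hypoxia 18, 11 and 35. Scaled to depth, the WT groups did not overlap, but the highest normoxic library (0.389 CPM) was close to the lowest hypoxic one (0.462 CPM), both being replicate 3. The count of 0 has an exact two-sided 95% Poisson interval up to 3.69 counts (the floor used for a 0 is 3 counts, or 0.108 CPM in that library), and the 14 counts of WT hypoxia replicate 3 have one of 7.65 to 23.5, for counting error only.

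The fitted change of Hif3a was 2.43 ± 0.81 in WT (adjusted p = 0.0389) and 1.57 ± 0.82 in KO (adjusted p = 0.171). With replicate numbers paired in WT, as the libraries there deviated together, the value was 2.35 and the call was lost. It was lost too without WT normoxia replicate 1 (1.90), WT normoxia replicate 2 (2.43), WT hypoxia replicate 1 (1.88), WT hypoxia replicate 2 (2.45) or KO hypoxia replicate 1 (2.42), with no low-count filter (2.44), with the compared groups alone (2.43) and with the Y-linked covariate (2.43), and in the Xist-bearing libraries alone the value was 0.24. The responses by replicate number were 4.93, 2.11 and 0.20 on the log2 scale (prior count 2), so the Hif3a rise stood on WT replicates 1 and 2.

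Arnt (ENSMUSG00000015522, chromosome 3, 95434388 to 95497240), the stable partner of every alpha subunit, hardly varied. It ran from 83.4 to 96.6 CPM in WT normoxia, 90.9 to 95.3 in WT hypoxia, 93.2 to 97.7 in KO normoxia and 85.1 to 99.8 in KO hypoxia. All 4 groups overlapped. The change with hypoxia was 0.02 ± 0.08 in WT (95% interval -0.15 to 0.19) and -0.02 ± 0.08 in KO (95% interval -0.19 to 0.15). Reads of Gm42672, a processed pseudogene within Arnt, numbered 0 to 20 per library.

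**Figure D1:**
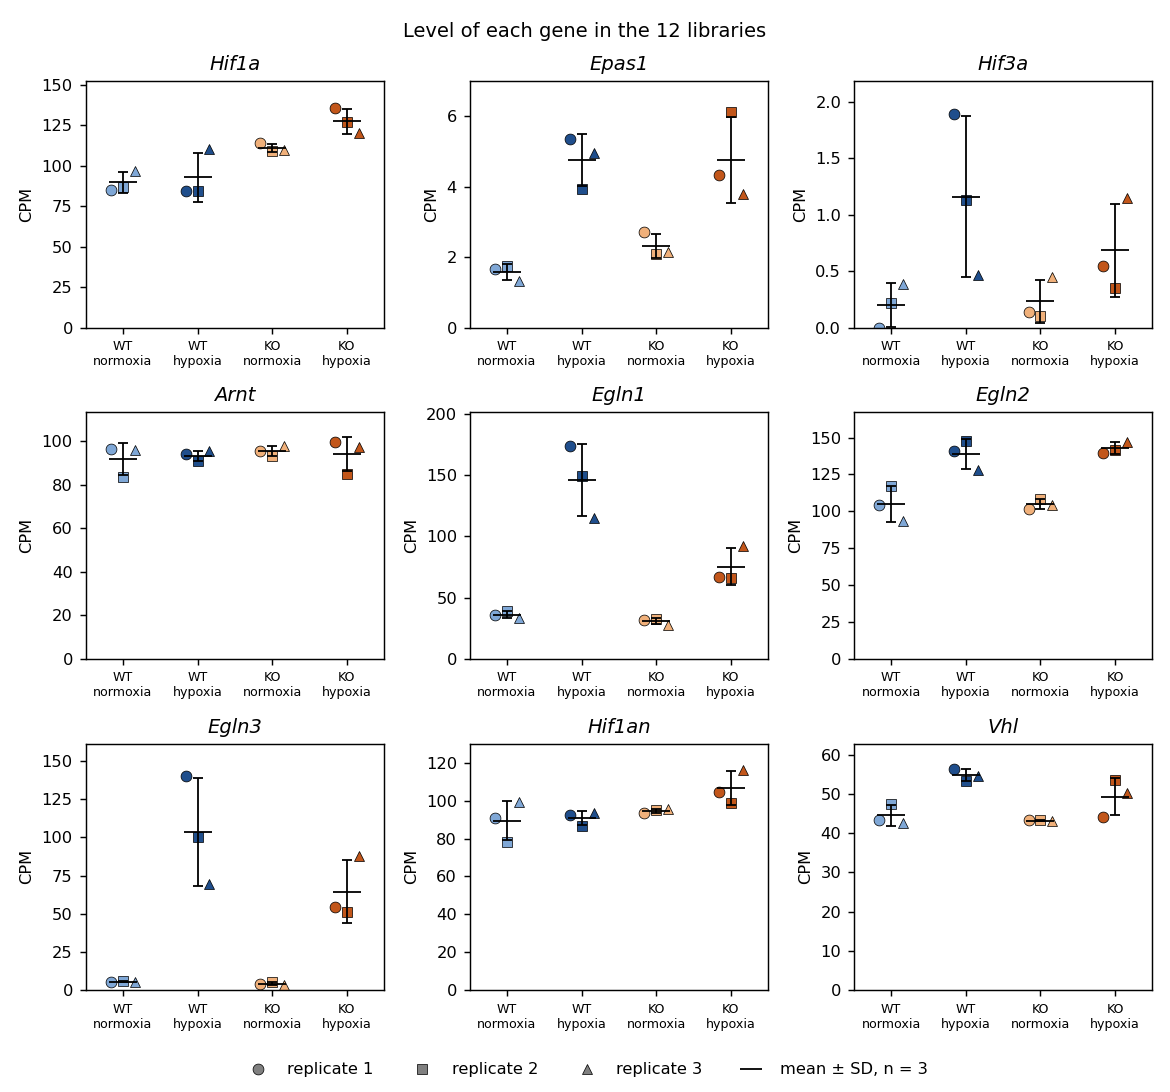
CPM of each of the 9 genes (vertical axes from 0, a separate scale per gene) in the 12 libraries of the 4 groups; points are libraries with a symbol per replicate number, and the lines are the mean ± SD of 3 libraries. Egln1, Egln3 and Epas1 stand apart between normoxia and hypoxia in both genotypes, and Arnt overlaps in all 4 groups.

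All 3 prolyl hydroxylase genes rose with hypoxia, Egln3 and Egln1 by more than Egln2. Because hypoxia response elements are known by the core ACGTG or GCGTG, the RefSeq promoters (GRCm38.p6, 250 bases before to 50 after a start site) of the prolyl hydroxylases, and of Hif1a as the targeted gene, are shown, with each ACGTG or GCGTG on either strand in capitals (on the minus strand they read CACGT and CACGC).
Egln1 promoter, chr8:124949205-124949504, minus strand: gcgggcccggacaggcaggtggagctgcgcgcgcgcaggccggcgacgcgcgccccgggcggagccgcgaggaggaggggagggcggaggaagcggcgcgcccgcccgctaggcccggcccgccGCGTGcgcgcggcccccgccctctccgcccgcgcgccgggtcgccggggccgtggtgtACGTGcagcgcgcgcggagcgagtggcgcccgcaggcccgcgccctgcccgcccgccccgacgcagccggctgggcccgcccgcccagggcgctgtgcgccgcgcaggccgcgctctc
Egln2 promoter, chr7:27166753-27167052, minus strand: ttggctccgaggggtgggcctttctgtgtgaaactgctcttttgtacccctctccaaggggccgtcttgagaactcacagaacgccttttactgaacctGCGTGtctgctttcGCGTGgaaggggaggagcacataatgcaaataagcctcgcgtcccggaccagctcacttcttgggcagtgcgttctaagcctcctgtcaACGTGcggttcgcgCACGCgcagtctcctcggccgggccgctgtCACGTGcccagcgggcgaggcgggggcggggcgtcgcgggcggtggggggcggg
Egln3 promoter, chr12:54203825-54204124, minus strand: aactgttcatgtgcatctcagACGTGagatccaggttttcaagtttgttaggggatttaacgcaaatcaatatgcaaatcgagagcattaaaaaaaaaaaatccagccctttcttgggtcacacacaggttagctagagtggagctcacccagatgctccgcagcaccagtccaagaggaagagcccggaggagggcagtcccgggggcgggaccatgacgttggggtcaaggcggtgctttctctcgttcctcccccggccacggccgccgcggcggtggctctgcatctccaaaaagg
Hif1a promoter, chr12:73907617-73907916, plus strand: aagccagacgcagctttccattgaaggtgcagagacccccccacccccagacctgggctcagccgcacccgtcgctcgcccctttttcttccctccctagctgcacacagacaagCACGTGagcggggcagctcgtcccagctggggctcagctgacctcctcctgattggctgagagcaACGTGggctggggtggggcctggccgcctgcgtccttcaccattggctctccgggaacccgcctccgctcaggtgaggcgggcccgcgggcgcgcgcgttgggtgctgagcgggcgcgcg

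Egln1 had GCGTG at -126 and ACGTG at -68 from the start site. Egln3 had a single ACGTG at -229. Egln2 had 6 matches in this window, of which the ones at -4 and -3 are the palindrome CACGTG read on both strands, and 1 in the window of a second start site. Hif1a had 3, again with a CACGTG read on both strands, at -135 and -134. Of the 8 genes matched in the promoter table, 6 held a match in some window, Hif3a and Arnt being the others, and Hif1an and Vhl held none. Over all 32851 promoters of this length 19.6% held ACGTG, 32.4% held GCGTG and 43.8% held either. A match is a run of letters, not a bound site, and genes with and without one were found both among those that rose and among those that did not.

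Egln3 (ENSMUSG00000035105, chromosome 12, 54178981 to 54203860) encodes PHD3, an enzyme long known to be induced by low oxygen. Normoxic levels were 5.17, 5.75 and 5.26 CPM in WT and 3.99, 5.07 and 3.25 CPM in KO. Under hypoxia they were 140, 100.4 and 69.7 CPM in WT and 54.3, 50.9 and 88.2 CPM in KO. Hypoxic and normoxic libraries lay far apart, and among the hypoxic ones KO replicate 3 lay above WT replicate 3. Egln3 rose by 4.26 ± 0.30 in WT (19.1-fold, adjusted p = 4.3e-06) and by 3.97 ± 0.31 in KO (15.7-fold, adjusted p = 5.62e-06).

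Egln1 (ENSMUSG00000031987, chromosome 8, 124908587 to 124949324) encodes PHD2, the main enzyme that marks HIF-1α for destruction in most cells. It had 35.6, 39.2 and 33.6 CPM in WT normoxia and 31.6, 32.7 and 27.9 CPM in KO normoxia. Hypoxia brought it to 174, 149 and 115 CPM in WT, and to 67.2, 65.9 and 92.4 CPM in KO. None of the 4 groups overlapped another: KO normoxia was lowest, then WT normoxia, KO hypoxia and WT hypoxia. Egln1 rose by 2.02 ± 0.16 in WT (4.05-fold, adjusted p = 1.99e-06) and by 1.29 ± 0.16 in KO (2.44-fold, adjusted p = 5.59e-05).

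Egln2 (ENSMUSG00000058709, chromosome 7, 27158658 to 27166802) encodes PHD1, not known as a hypoxia-induced enzyme. It had 104, 117 and 93.2 CPM in WT normoxia and 141, 148 and 128 CPM in WT hypoxia. In KO it had 101.5, 108 and 104 CPM, and then 139, 141 and 147 CPM. Hypoxic libraries lay above normoxic ones in both genotypes, by a small step. Egln2 rose by 0.41 ± 0.08 in WT (1.32-fold, adjusted p = 0.00297) and by 0.45 ± 0.08 in KO (1.36-fold, adjusted p = 0.00148). Cyp2t4, on the other strand across Egln2, had 21 to 56 counts per library. The calls of Egln1, Egln2 and Egln3 held in both genotypes under all 21 alternatives.

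The make-up of prolyl hydroxylase RNA turned over with hypoxia. Per kb of exon Egln2 held 74.6 to 76.2% of it in WT normoxia and 33.3 to 43.9% in WT hypoxia, against 77.9 to 80.6% and 47.2 to 57.4% in KO. The Egln1 share went from 19.8 to 20.9% up to 30.9 to 32.0% in WT, but from 16.8 to 18.9% only to 20.8 to 23.1% in KO, a difference that was given no test of its own. The Egln3 share went from 4.11 ± 0.277% (SD, n = 3) to 29.5 ± 4.83% in WT and from 3.23 ± 0.596% to 24.8 ± 4.31% in KO. For both Egln3 rises the exact two-sided permutation p was 0.1, the smallest possible (adjusted p = 0.16). KO and WT differed in the Egln3 share by -4.70 points under hypoxia (exact permutation p = 0.3, overlapping) and by -0.878 points in normoxia (exact permutation p = 0.1, not overlapping).

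**Figure D2:**
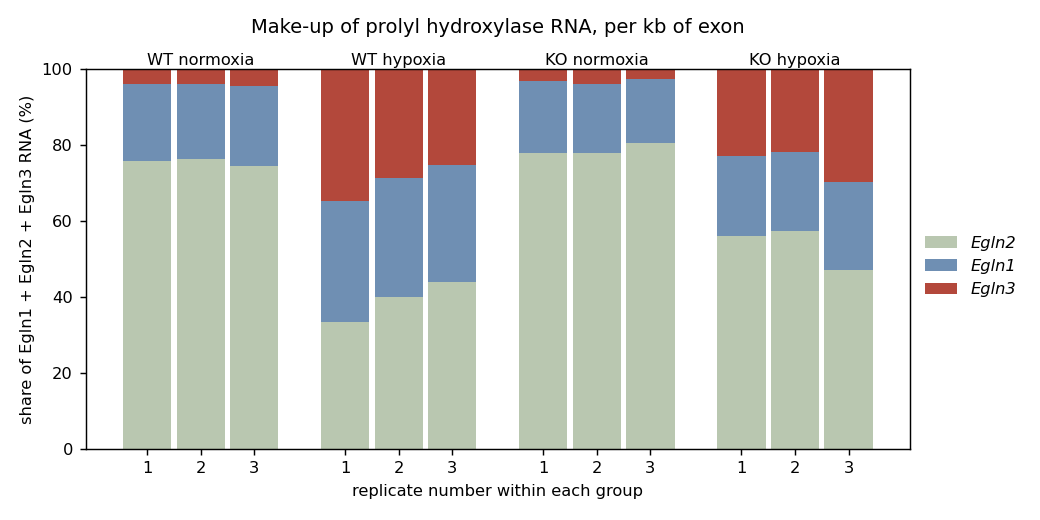
Share of Egln2, Egln1 and Egln3 in their summed counts per kb of exon (vertical axis, 0 to 100%), 1 bar per library. Egln2 makes up 74.6 to 80.6% of every normoxic library and 33.3 to 57.4% of the hypoxic ones.

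Relative to Hif1a the enzymes gained as well. The summed prolyl hydroxylase RNA per Hif1a RNA, both per kb, was 3.40, 3.72 and 2.72 in WT normoxia and 10.6, 9.23 and 5.55 in WT hypoxia. In KO it was 2.41, 2.68 and 2.48 in normoxia and 3.86, 4.08 and 5.47 in hypoxia. The ratio in KO lay below WT in each condition without overlap, by a narrow margin at WT replicate 3 of both conditions. The enzyme sum itself overlapped between the genotypes, at 44.6 to 55.0 CPM per kb in WT and 46.3 to 49.7 in KO in normoxia and at 104 to 151.5 in WT and 87.9 to 111.4 in KO in hypoxia, while the divisor, the whole-gene reads of the targeted Hif1a, lay above every WT library of the same condition in KO. Egln3 RNA per Egln1 RNA was 0.157 to 0.211 in normoxia, 0.816 to 1.09 in WT hypoxia and 1.04 to 1.29 in KO hypoxia.

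Hif1an (ENSMUSG00000036450, chromosome 19, 44562850 to 44576274), the asparaginyl hydroxylase gene, was near level. It had 91.1, 78.4 and 99.2 CPM in WT normoxia and 92.2, 86.7 and 93.6 CPM in WT hypoxia. KO libraries had 93.6, 95.1 and 95.4 CPM in normoxia and 104, 99.1 and 116 CPM in hypoxia. The WT groups overlapped and the KO groups did not. Its change was 0.02 ± 0.09 in WT (adjusted p = 0.888) and 0.17 ± 0.09 in KO (adjusted p = 0.158).

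Vhl (ENSMUSG00000033933, chromosome 6, 113623959 to 113631633), the substrate receptor of the ligase, rose slightly in WT. It had 43.4, 47.6 and 42.7 CPM in WT normoxia and 56.5, 53.4 and 54.7 CPM in WT hypoxia. In KO it had 43.3, 43.3 and 43.1 CPM, and then 44.2, 53.5 and 50.4 CPM. WT hypoxia lay apart from WT normoxia, and KO hypoxia replicate 1 lay just above KO normoxia. The change was 0.30 ± 0.08 in WT (1.23-fold, adjusted p = 0.0144) and 0.19 ± 0.08 in KO (adjusted p = 0.0930). The WT call was lost without WT normoxia replicate 1 (0.28) or WT hypoxia replicate 1 (0.27), once monocyte and neutrophil marker levels entered the model (0.28) and in the Xist-bearing libraries alone (0.35). Its pseudogene Vhl-ps1 had 0 to 2 counts per library. In KO Vhl was called without WT normoxia replicate 2 (0.21) or KO hypoxia replicate 1 (0.28).

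Counted together, 6 of the 9 genes rose with hypoxia in WT and none fell, where 27.8% of all 17506 genes tested were called, 11.4% of all higher and 16.3% lower. In KO 4 of 9 rose, where 30.3% of all genes were called, 14.5% higher and 15.7% lower. The ranges of the groups did not overlap for 6 of 9 genes in WT (all genes: 40.3%) and for 7 of 9 in KO (all genes: 48.9%). The median log2 fold change of the 9 was 0.41 in WT and 0.45 in KO, beside medians of 0.01 and 0.04 over all genes. By fold the called genes ran Egln3, Egln1, Epas1, Egln2 and Vhl in WT, and Hif3a had no firm place among them (95% interval 0.69 to 4.17). Of 5 T and NK markers 2 fell with hypoxia in WT and 3 in KO, with sums of 187.6 to 248.4 CPM in WT normoxia and 65.6 to 83.0 CPM in WT hypoxia. That sum was mostly Cd4 and Cd8a, whereas Cd3e was at 1.61 to 2.06 CPM in WT normoxia and 2.11 to 4.26 CPM in WT hypoxia, and Cd3d and Nkg7 were as low. Of 6 stromal and endothelial markers tested 3 fell in each genotype and 1 rose in KO. The 7 listed summed to 364 to 409.9 CPM in WT normoxia and 223.5 to 268.5 CPM in WT hypoxia, and to 388.4 to 415.4 and 194.5 to 204.3 CPM in KO. Most of this sum was Pecam1, at 267 to 286.1 CPM in WT normoxia and 188.3 to 235.3 CPM in WT hypoxia. Kdr was at 46.8 to 103.7 CPM in WT normoxia and 4.4 to 12.2 CPM in WT hypoxia. In KO Kdr was at 82.8 to 102.9 CPM in normoxia and 5.9 to 7.2 CPM in hypoxia. Cdh5 was at 27.4 to 32.8 CPM in WT normoxia and 18.4 to 19.2 CPM in WT hypoxia. Col1a1 was at 1.47 to 2.74 CPM in WT normoxia and 2.71 to 4.65 CPM in WT hypoxia, and Tek, Cxcl12 and Lepr were lower in every library. No defining marker of either list was at 0 in a whole group, and the part of these cells in the results was not tested.

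Each condition was then compared between genotypes. In WT replicates 1 and 2 genotype and sex cannot be told apart, since these libraries had Y-linked transcripts and almost no Xist, whereas every KO library had Xist. Under hypoxia Egln1 was lower in KO by -0.96 ± 0.15 (0.514-fold, adjusted p = 0.00272), with 3 of 3 KO libraries below 3 of 3 WT libraries. Hif1a was higher in KO by 0.46 ± 0.10 (1.37-fold, adjusted p = 0.0132), again without overlap. These 2 of 9 genes were called where 9.84% of all genes were, 4.72% higher and 5.12% lower. Hif1an did not overlap in this comparison either, and the ranges of 31.7% of all genes did not. The values for Egln3 were -0.68 ± 0.26 (adjusted p = 0.128), for Hif1an 0.23 ± 0.09 (adjusted p = 0.114), for Vhl -0.15 ± 0.08 and for Hif3a -0.76 ± 0.72, none of them called. Epas1 (-0.001 ± 0.21, 95% interval -0.46 to 0.46), Egln2 (0.04 ± 0.08) and Arnt (0.01 ± 0.08) lay near 0, the sign of the Epas1 and Arnt values turning under some settings.

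The Egln1 call held without any single library (-1.11 to -0.79) but not once monocyte and neutrophil marker levels entered the model (-0.79) or in the Xist-bearing libraries alone (-0.62), a fit that leaves 1 WT library per condition and assumes that it varies like the others. Hif1a lost its call in the same settings (0.36 and 0.21) and without WT hypoxia replicate 1 (0.41), WT hypoxia replicate 2 (0.39) or KO hypoxia replicate 1 (0.43). Egln3 was called lower in KO without WT hypoxia replicate 3 (-0.88) or KO hypoxia replicate 3 (-0.95) and with DESeq2 (-0.68). Hif1an was called higher in KO without WT normoxia replicate 2 (0.26) or WT normoxia replicate 3 (0.26). Monocyte markers moved with the same contrast: 4 of 8 were lower in KO, beside 5.12% of all genes. Their summed levels were 1353 to 2005 CPM in WT hypoxia and 778 to 1405 CPM in KO hypoxia, with none at 0. So did other lists: 3 of 8 B-lineage markers and 2 of 6 stromal and endothelial markers tested were lower in KO. Neutrophil, T and NK and erythroid markers were not called in this comparison.

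In normoxia 0 of the 9 genes were called between genotypes by edgeR and 0 by DESeq2, where 0.0228% of all genes were called by edgeR. At an unadjusted p under 0.05 there were 2 of 9, beside 9.11% of all genes. These 2 were Hif1a (0.31 ± 0.10, adjusted p = 0.402) and Epas1 (0.55 ± 0.23, adjusted p = 0.506), both higher in KO without overlap. Egln1 (-0.23 ± 0.15) and Egln3 (-0.40 ± 0.31) also did not overlap, with KO lower. The ranges did not overlap for 4 of 9 genes, against 12.5% of all genes.

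**Figure D3:**
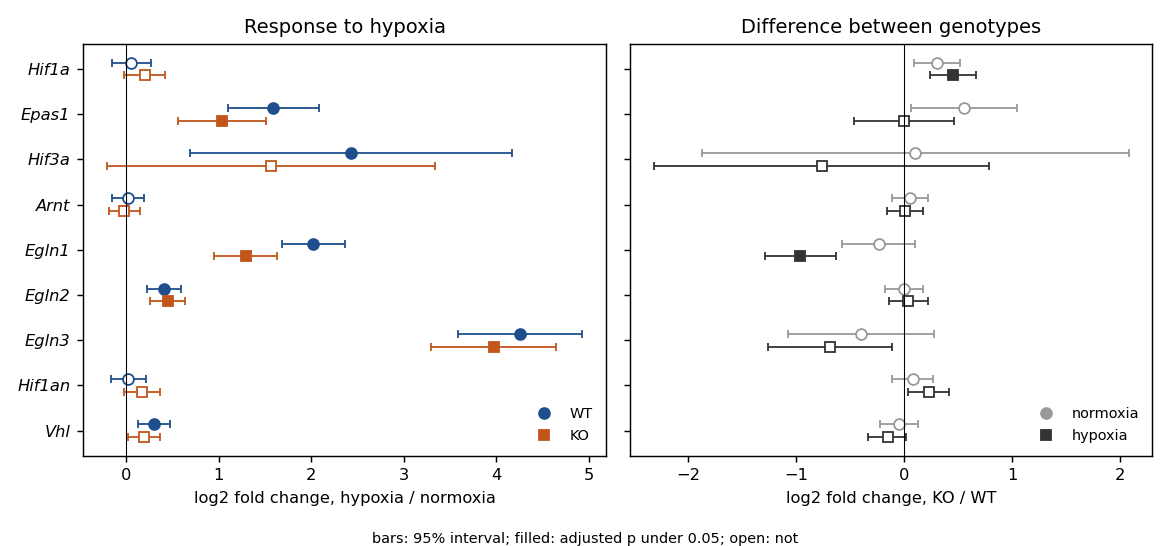
Log2 fold change of each gene, hypoxia over normoxia in WT and KO (left) and KO over WT in normoxia and hypoxia (right); bars are 95% intervals and filled symbols are called at an edgeR adjusted p under 0.05. Egln3, Egln1, Epas1 and Egln2 are filled in both genotypes on the left, and only Hif1a and Egln1 under hypoxia are filled on the right.

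The interaction asks whether the response itself differed between KO and WT. By edgeR 0 of the 9 genes were called, where 0.417% of all genes were. Egln1 alone, 1 of 9, had an unadjusted p under 0.05, as did 10.2% of all genes. The KO minus WT response of Egln1 was -0.73 ± 0.22 (95% interval -1.20 to -0.26, adjusted p = 0.221). DESeq2 called it, at -0.75, and it alone of the 9, in a fit that called 295 of all genes against 73 by edgeR. Under the other 19 of 20 alternatives the Egln1 interaction was not called, with values of -0.87 to -0.49. By replicate number Egln1 rose by 2.29, 1.96 and 1.76 in WT. Same-numbered KO libraries did not all deviate together (r = 0.183, -0.038 and 0.119 across genes, beside -0.184 to 0.06 for unlike numbers). The KO response of Egln1 is therefore not read by number. Among the KO hypoxia libraries replicate 3, at 92.4 CPM of Egln1, came closest to WT hypoxia, whose lowest library had 115 CPM. The intervals of the other genes included 0, among them Egln3 at -0.29 (95% interval -1.17 to 0.60), its sign turning under some settings, and Epas1 at -0.56 (-1.23 to 0.12). WT and KO comparisons of the response share no libraries, whereas each genotype comparison shares libraries with them.

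**Figure D4:**
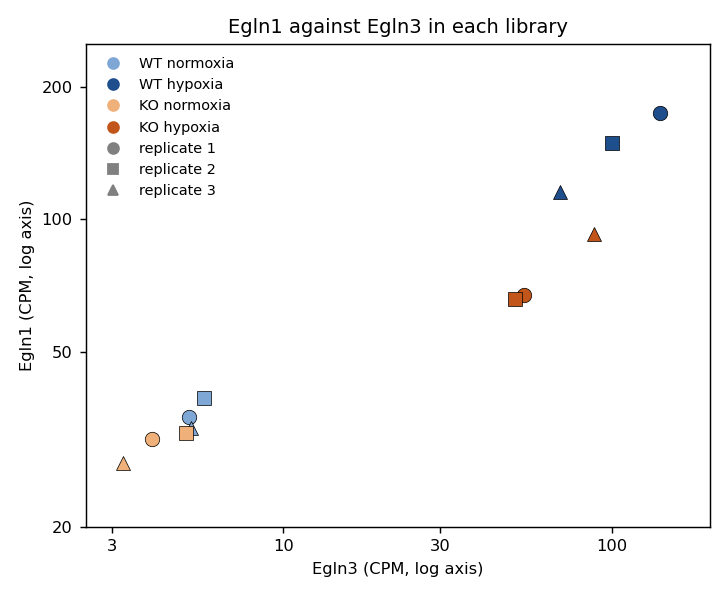
Egln1 against Egln3 in each library (CPM, both axes logarithmic), coloured by group with a symbol per replicate number. Normoxic libraries lie at 3.25 to 5.75 CPM of Egln3, and KO hypoxia replicate 3 (88.2 CPM of Egln3 and 92.4 CPM of Egln1) lies closest to WT hypoxia replicate 3 (69.7 and 115 CPM).

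Within hypoxia Egln1 and Egln3 were highest in the same library of each genotype. Replicate 1 had the highest Egln1 and Egln3 of WT hypoxia and replicate 3 the lowest, while in KO hypoxia replicate 3 was highest for both. KO replicate 3 also had the highest monocyte marker level of the KO libraries (mean log2 CPM of 5.24 in hypoxia and 5.87 in normoxia), whereas WT replicate 3 had the lowest of WT (5.68 and 6.07). Neutrophil markers were highest in replicate 3 of both genotypes, at 8.68 in WT hypoxia, 8.45 in WT normoxia, 7.99 in KO hypoxia and 8.03 in KO normoxia. The coefficient of variation of Egln3 was 34.1% in WT hypoxia and 32.0% in KO hypoxia, against 2.87 to 7.30% for Egln2, and the part of cell make-up in this spread was not tested.

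Compared per kb of exon, the order of the genes changed with oxygen. In WT normoxia Egln2 was highest at 37.5 ± 4.33 CPM per kb (SD, n = 3), apart from Hif1a at 15.2 ± 1.06. Vhl, Hif1an, Arnt and Egln1 followed, from 14.9 to 10.1 CPM per kb, each overlapping its neighbour. Egln3 (2.03), Epas1 (0.283) and Hif3a (0.0301) came last, each apart from the next. In WT hypoxia Egln2 (49.6 ± 3.62), Egln1 (40.7 ± 8.21) and Egln3 (38.8 ± 13.2) shared the top with overlapping ranges, above Vhl at 18.3 ± 0.511.

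KO normoxia kept the WT order, with Egln2 at 37.4 ± 1.24 CPM per kb and Hif1a next at 18.8 ± 0.436. In KO hypoxia Egln2 (51.0 ± 1.46) stood alone at the top. Egln3 (24.2 ± 7.75), Hif1a (21.6 ± 1.32) and Egln1 (20.9 ± 4.16) overlapped below it. Epas1 and Hif3a were the lowest in all 4 groups.

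Over the 12 libraries Egln1 varied most like Slc2a1, which encodes the glucose transporter GLUT1 (Pearson r = 0.998 of log2 CPM), Pgk1, the glycolytic phosphoglycerate kinase (0.994), and Bnip3, a mitophagy receptor (0.993). For Egln3 the most alike were Cd244a, a receptor of the SLAM family (0.995), Aldoc, an aldolase (0.992), and Ak4, a mitochondrial adenylate kinase (0.990). Epas1 was most like Mroh2a (0.976), Kank2 (0.969) and Klc3, a kinesin light chain (0.963), and Hif1a most like the RNA-binding protein genes Hnrnph1 (0.961) and Tardbp (0.953) and the lysosomal thioesterase gene Ppt1 (0.942). Among the 9, the correlation was 0.96 between Egln1 and Egln3, 0.93 between Egln2 and Egln3, 0.88 between Egln1 and Vhl and -0.18 between Hif1a and Egln1. These describe 12 libraries that share the 4 groups, out of 11540 genes searched.

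The wider pathway was read from 34 partner genes, 30 of them tested: other parts of the VHL ligase, further ligases and stability factors of HIF or the hydroxylases, coactivators and their competitors, other bHLH-PAS proteins, and P4htm. In WT hypoxia 3 rose and 3 fell, with a median of 0.06, and in KO 5 rose and 3 fell, with a median of 0.05. These are 20% and 26.7% of the partners tested, beside 27.8% and 30.3% of all genes. With WT replicate numbers paired, 11 of the 30 were called in WT. The share of all genes called by that fit is not given here, so the 11 cannot be set beside the 27.8%. Under hypoxia 1 of 30 differed between the genotypes, which is 3.33%, beside 9.84% of all genes. By edgeR 0 differed in normoxia (2 at an unadjusted p under 0.05, 0 by DESeq2) and 0 in the interaction (2 at an unadjusted p under 0.05, 1 by DESeq2). Each 2 of 30 is 6.67%, beside the 9.11% and 10.2% of all genes.

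Cited2, a competitor of HIF for the coactivators CBP and p300 and itself known to be HIF-induced, was the partner that differed. It stood at 66.1 ± 4.0 CPM (SD, n = 3) in the WT normoxia group and 91.5 ± 5.80 CPM after hypoxia, against 67.7 ± 1.38 and 69.4 ± 0.75 CPM in KO. It rose by 0.47 ± 0.07 in WT (adjusted p = 0.000262), with 0.04 ± 0.07 in KO, and was lower in KO under hypoxia by -0.40 ± 0.07 (adjusted p = 0.00414). The last call was lost once monocyte and neutrophil marker levels entered the model (-0.37) and in the Xist-bearing libraries alone (-0.29). Its interaction was -0.43 (adjusted p = 0.0842), called by DESeq2 (-0.45), with the CPM filter (-0.46) and without WT hypoxia replicate 3 (-0.45).

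Wsb1, part of a ubiquitin ligase reported to act on VHL, went from 155 ± 19.4 to 222 ± 17.9 CPM in WT and from 166 ± 6.24 to 256 ± 2.58 CPM in KO. It rose by 0.52 ± 0.09 in WT (adjusted p = 0.000692) and 0.63 ± 0.09 in KO (adjusted p = 0.00015), under all 21 alternatives. Siah2, a ligase of prolyl hydroxylases, rose by 0.29 in WT, a call that held under 7 of 21 alternatives, and by 0.34 in KO, which held under 18. Clock, a bHLH-PAS factor of the circadian clock, rose in KO (0.61) and had 0.34 in WT (adjusted p = 0.128), with an interaction of 0.27 (adjusted p = 0.754). Ubxn7, which links VHL substrates to the p97 segregase, rose in KO (0.28, held under 15 of 21 alternatives) and had 0.26 in WT (adjusted p = 0.0514), with an interaction of 0.02 (adjusted p = 0.978). Cul2, the scaffold of the VHL ligase, fell by 0.32 in WT and by 0.25 in KO. Os9, a lectin reported to aid HIF-1α hydroxylation, fell by 0.26 and 0.33, and the SUMO protease gene Senp1 fell by 0.23 and 0.26. In WT the call of Cul2 held under 19, that of Os9 under 18 and that of Senp1 under 10 of 21 alternatives, and in KO those of Cul2 and Senp1 each held under 14 and that of Os9 under 20. The other VHL ligase genes (Elob, Eloc, Rbx1 and Rnf7) and the chaperone genes Hsp90aa1 and Hsp90ab1 were not called in any comparison.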

How the data were processed

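The deposited table holds read counts per Ensembl gene for the 12 libraries, which the authors had not normalized; the submitters' processing notes name CASAVA, Bowtie 0.12.2 and mm10. Counter, annotation release and strand setting were not given in the sources used here. Libraries were made with an Illumina TruSeq RNA kit from total RNA. Symbols, coordinates and merged exon lengths came from GENCODE vM21 (46488 of 46983 identifiers matched, 495 did not), and promoters from RefSeq (GRCm38.p6), in which 8 of the 9 genes were found.

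Counts (27629175 to 36880082 per library) were scaled by TMM (factors 0.969 to 1.039) and tested with edgeR 4.0.16 in R 4.3.3: filterByExpr, then a model with a mean for each of the 4 groups, all 12 libraries sharing the spread (robust quasi-likelihood), and F tests of 5 contrasts. Genes were called at a Benjamini-Hochberg adjusted p under 0.05 over 17506 genes. The 29477 genes left out held 0.074% of counts. Intervals on single counts cover counting error only. Shares were compared by exact two-sided permutation.

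The 9 genes, the lists and the naming rule were chosen with earlier results of these data known. The rule names all 9 genes, up to 8 called partner genes with the smallest adjusted p, and the 3 genes most alike for Hif1a, Epas1, Egln1 and Egln3. Same-numbered WT normoxia and hypoxia libraries deviated together (r = 0.195, 0.360 and 0.434 across genes), so the blocked value is given where it changes a WT call. No 2 libraries of a group matched within sampling noise.

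Alternatives were RLE size factors, no filter, a CPM minimum of 1 reached by at least 3 libraries, a fit of the compared groups alone, DESeq2 1.42.0, replicate numbers as a block, covariates for Y-linked reads or for monocyte and neutrophil markers, the 8 libraries with Xist, and each library left out in turn; for shares, raw counts.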

Additional observations from a re-analysis of the deposited data

How the results depend on the processing

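The hypoxia calls of Egln1, Egln2, Egln3 and Epas1 held in WT and KO under all 21 alternatives; the cause of the changes below was not tested. Depth limits Hif3a, which is at or near the floor in normoxia. Counts of the 9 genes and of their partners are small, and a single gene moves them. Where such a count stands below without the share of all genes in the same fit, it is not read as a result about these genes. The main counts of all genes called were 4862 (WT response), 5296 (KO response), 1723 (KO against WT under hypoxia), 4 (the same in normoxia) and 73 (interaction), of the 9 genes 6, 4, 2, 0 and 0, and of the partners 6, 8, 1, 0 and 0.

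Under DESeq2 92 genes were called in normoxia and 295 in the interaction, with 1 of the 9 genes and 1 partner in the latter. With no filter 40 genes were called in normoxia and 194 in the interaction, and the values were -0.01 for Arnt between genotypes under hypoxia and -0.012 for Cited2 in the KO response. The CPM filter gave 1 partner in the interaction. The compared groups alone gave 0 genes in normoxia, 3 partners in the WT response, 4 partners between genotypes under hypoxia and 0.019 for Epas1 there. RLE factors changed no count beyond 1.5 times.

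With replicate numbers as a block, 188 genes were called in the interaction, and 11, 14 and 2 partners in the WT response, the KO response and between genotypes under hypoxia. Of the WT member calls the block changed that of Hif3a alone (2.35). KO numbers did not all pair (r = 0.183, -0.038 and 0.119), and the block there gave 5 of the 9 genes instead of 4.

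The Y-linked covariate gave 1008 genes between genotypes under hypoxia, 112 in the interaction and 0.01 for Epas1 under hypoxia. Monocyte and neutrophil markers in the model gave 2992, 2712, 61, 0 and 45 genes, in the order above, 0 of the 9 genes between genotypes under hypoxia, 2, 1 and 0 partners in the WT response, the KO response and that comparison, and values of -0.078 for Hif1a in the WT response, 0.047 for Arnt in the KO response and 0.67 for Hif3a between genotypes under hypoxia. The Xist-bearing libraries alone gave 1369, 167, 1 and 1 genes in the WT response, between genotypes under hypoxia, in normoxia and in the interaction, 0 of the 9 genes between genotypes under hypoxia, and 2 and 0 partners in the WT response and that comparison. Values there were -0.02 for Arnt and -0.10 for Hif1an in the WT response, -0.014 for Arnt and 0.56 for Hif3a between genotypes under hypoxia and 0.25 for Egln3 in the interaction.

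Leaving out 1 library at a time gave 672 to 2654 genes between genotypes under hypoxia, 3 to 294 in normoxia and 18 to 224 in the interaction. Under hypoxia 2654 came without WT normoxia replicate 2, 672 and 754 without WT hypoxia replicates 1 and 2, and 675 and 1147 without KO hypoxia replicates 1 and 2. In normoxia 294 came without KO normoxia replicate 3 and 16 without WT normoxia replicate 3. The interaction count was 224 without WT hypoxia replicate 3 and fell to 18 to 47 without WT normoxia replicate 1, WT hypoxia replicate 1 or 2, any KO normoxia library or KO hypoxia replicate 1 or 2. Of the 9 genes 1 to 3 were called between genotypes under hypoxia, the 1 without WT hypoxia replicate 1, WT hypoxia replicate 2 or KO hypoxia replicate 1. Partners called were 1 to 4 there (4 without WT normoxia replicate 2 or 3, 2 without KO hypoxia replicate 3), 3 to 13 in the KO response (13 without WT normoxia replicate 2, 3 without KO normoxia replicate 1, 5 without KO normoxia replicate 3 or any KO hypoxia library) and 0 to 1 in the interaction (1 without WT hypoxia replicate 3). Values spanned 0 for Epas1 (-0.20 to 0.16) and Arnt (-0.016 to 0.107) between genotypes under hypoxia, Hif1a (-0.10 to 0.11), Hif1an (-0.082 to 0.089) and Arnt (-0.058 to 0.053) in the WT response, Arnt (-0.054 to 0.07) in the KO response and Egln3 (-0.54 to 0.024) in the interaction.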
